A study of Mus musculus with 12 samples.

Results

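The mitochondrial genome CpGs are the CG dinucleotides on chromosome M for which a methylation level was deposited, taken by chromosome name alone and not by any measured value. They numbered 230 of the 8098296 CpGs listed in at least 1 of 10 libraries, with 223 to 228 in a single library and 219 in all 10. The assay was reduced representation bisulfite sequencing (RRBS) of mouse PKD1-Het cells, proximal renal tubule cells heterozygous for Pkd1, taken from Pkd1 flox/-:TSLargeT mice and used at passage 3. Every group shares that genotype, so none has wild-type Pkd1. The cells received for 24 h either PBS, the 50 µM DNA methyltransferase inhibitor 5-aza-2′-deoxycytidine (Aza), a free mixture of 10 µM tolvaptan, 300 µM metformin and 50 µM Aza (F-MTAza), or those 3 drugs at the same doses in nanoparticles, which are micelles (NP-MTAza). There were 3 libraries per group. Nothing in the labels says whether the 3 came from separate cultures, so p-values measure the spread between libraries, which may be technical.

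Aza replicates 1 and 2 were left out, because their chromosome M entries do not resemble those of any other library. That leaves 3 PBS, 1 Aza, 3 F-MTAza and 3 NP-MTAza libraries, and Aza is given by its single value with no test. F-MTAza and NP-MTAza together, 6 libraries, are called the combination below. PBS replicate 2 stood far apart from the other 9 libraries on chromosome M, so comparisons of library levels with PBS are given with and without it.

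Mitochondrial DNA is a circular molecule held in many copies per cell, and it encodes the 2 ribosomal RNAs, the transfer RNAs and a small set of respiratory chain proteins of the organelle. The enzymes that copy CpG methylation at replication work in the nucleus, and how much CpG methylation mitochondrial DNA carries is debated. In bisulfite sequencing an unmethylated cytosine is converted and read as thymine, whereas a methylated cytosine and one that escaped conversion are both read as cytosine. The method does not separate the 2, so a level on mitochondrial DNA is the sum of both. Aza acts on nuclear DNA by being built into replicating strands, where it traps DNA methyltransferases.

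RRBS fragments are cut by MspI, which cleaves CCGG whether or not its inner CpG is methylated, so that CpG lies at a fragment end. Chromosome M in the mm9 (NCBIM37) build is 16299 bases long with 287 CpGs and 11 MspI sites, numbered here in order along the genome. The sites that carry the results below are shown 5′ to 3′ on the reference strand with CCGG in capitals. Sites 3, 5 and 6 had the highest levels over the 10 libraries pooled. Site 8 is shown because 2 libraries stood apart there at high depth, and its deep neighbour, site 7, for contrast.
MspI site 3, chrM:2509-2532, in the large ribosomal RNA gene mt-Rnr2: tgagttcagaCCGGagcaatccag
MspI site 5, chrM:3390-3413, in the complex I subunit gene mt-Nd1: gaatacgcagCCGGcccattcgcg
MspI site 6, chrM:5715-5738, in the cytochrome oxidase subunit gene mt-Co1: ccacctctagCCGGaaatctagcc
MspI site 7, chrM:6102-6125, in mt-Co1: acttactactCCGGaaaaaaagaa
MspI site 8, chrM:6264-6287, in mt-Co1: gcaattcctaCCGGtgtcaaagta

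Mitochondrial CpGs were covered far more deeply than nuclear ones. Each of the 10 libraries held between 68942 and 162574 reads over its mitochondrial CpGs, a mean depth 25.2 to 43.2 times the mean depth of its nuclear CpGs. Read totals here and below are sums over CpGs, so a read that spans several CpGs counts once at each. Median depth per mitochondrial CpG ranged from 146 to 370 reads, and the deepest CpG of a library had 2822 to 14413. Depth differed between the fragments that MspI sites bound, though not by length alone. The 3 CpGs within the 162-base fragment between sites 7 and 8 had a median over libraries of 5438 reads each, whereas the 32 within the 1737-base fragment between sites 1 and 2 had 79.9. The shortest fragment, 68 bases between sites 4 and 5, had only 64 at its 3 CpGs, and the longest, 7342 bases, had 409.5. The 7 CpGs inside fragments under 300 bases, the size the library preparation selected for, took 20.3% of the reads at CpGs between sites. The other reads fell in longer fragments.

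The mitochondrial methylation level, methylated reads over all reads at mitochondrial CpGs, was below 0.5% in 9 of 10 libraries. In PBS it was 0.290%, 2.76% and 0.280% in replicates 1, 2 and 3. Aza replicate 3 stood at 0.427%. The F-MTAza libraries measured 0.303%, 0.255% and 0.267%. In NP-MTAza the 3 values were 0.332%, 0.286% and 0.383%. PBS replicate 2 was thus above every other library, and without it the PBS values lay inside the range of the treated ones. The 95% Wilson interval of PBS replicate 1 was 0.259% to 0.325% and that of PBS replicate 2 was 2.66% to 2.87%. These intervals cover counting error only. Reads that span several CpGs are counted at each, and reads amplified without molecular identifiers are not independent molecules.

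**Figure D1:**
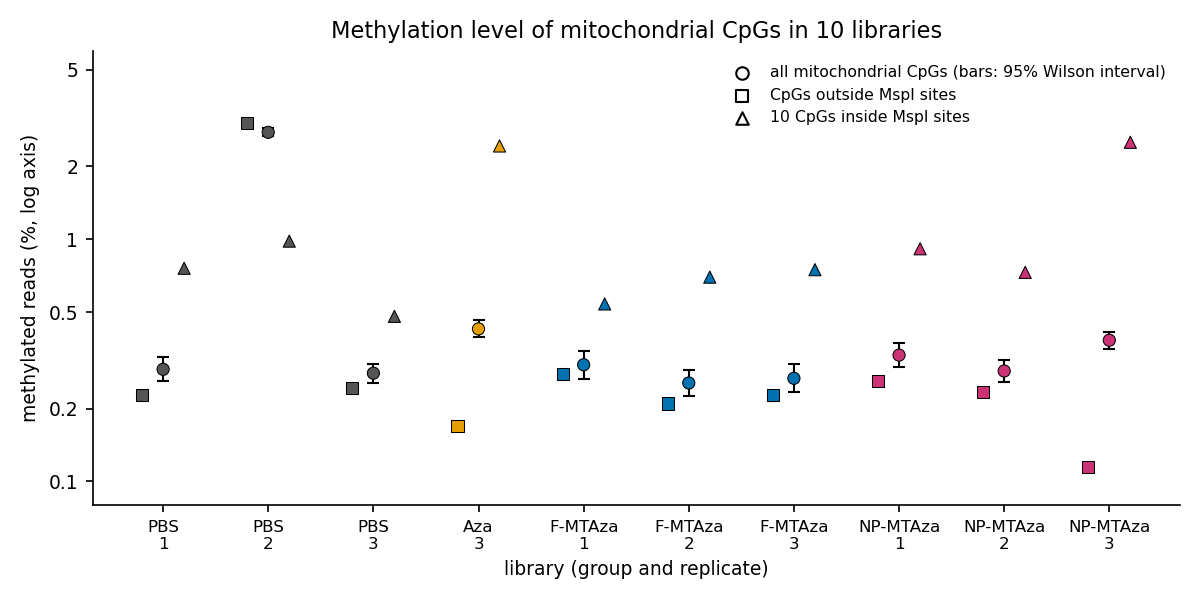
Methylated reads in percent, on a log axis, for each of the 10 libraries, over all mitochondrial CpGs (circles, with 95% Wilson intervals), over CpGs outside MspI sites (squares) and over the 10 listed CpGs inside MspI sites (triangles); colours mark the groups. PBS replicate 2 is high outside the sites at 3.03%, whereas Aza replicate 3 and NP-MTAza replicate 3 are high only inside them, at 2.43% and 2.51%.

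The comparison with PBS asks whether the drugs moved a signal on DNA outside the nucleus. Whether methyltransferases act on that DNA was not tested. The combination averaged 0.304% ± 0.0473 (SD, n = 6) against 1.11% ± 1.43 (SD, n = 3) in PBS, a difference of -0.807 points. By a two-sided exact permutation test this gave p = 0.214, where the design allows no p below 0.0119. Without PBS replicate 2 the sign turned, to 0.0192 points higher in the combination (exact permutation p = 0.679). F-MTAza, at 0.275% ± 0.0251, differed from PBS by -0.836 points (exact permutation p = 0.3) and NP-MTAza, at 0.334% ± 0.0486, by -0.778 points (exact permutation p = 0.9). With 3 libraries against 3 no p-value below 0.1 can be reached. Without PBS replicate 2 these differences were -0.0102 and 0.0486 points. NP-MTAza lay 0.0588 points above F-MTAza with overlapping ranges (exact permutation p = 0.2), and all 7 drug-treated libraries together differed from PBS by -0.79 points (exact permutation p = 0.217), or 0.0366 points without PBS replicate 2. After Benjamini-Hochberg adjustment over these 5 comparisons the exact permutation p-values ran from 0.361 to 0.9.

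On autosomes the same libraries separated without overlap. The autosomal level was 68.1%, 71.5% and 66% in PBS and between 44.7% and 48.1% in the 7 drug-treated libraries. The combination differed from PBS by -22.3 points (exact permutation p = 0.0119, the smallest possible), or by -20.8 points without PBS replicate 2, which was the highest library here too. As a ratio, log2 of mitochondrial over autosomal level was -7.87, -4.69 and -7.88 in PBS. It ran from -7.52 to -6.87 in the combination and was -6.73 in Aza replicate 3. The combination differed from PBS by -0.44 on the log2 scale (exact permutation p = 0.714). Without PBS replicate 2 it was 0.62 above PBS, with every combination library above both PBS libraries (exact permutation p = 0.0357, the smallest 6 against 2 allow). In the same libraries the mitochondrial level itself differed by 0.0192 points and the autosomal level separated the groups.

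The share of reads, summed over CpGs, that fell on mitochondrial CpGs overlapped between the groups. As a read counts at every CpG it spans, this is not the share of distinct reads. The share was 0.228%, 0.304% and 0.247% in PBS and 0.293% in Aza replicate 3. F-MTAza had 0.272%, 0.237% and 0.249%, and NP-MTAza had 0.234%, 0.266% and 0.274%. The combination differed from PBS by -0.00451 points (exact permutation p = 0.845). The 5 comparisons of the share gave exact permutation p-values from 0.845 to 1, each 1 after adjustment over them. In a share of reads, mitochondrial genomes per cell and recovery of their fragments cannot be told apart.

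With reads pooled, CpGs inside MspI sites together stood above the rest in 9 of the 10 libraries, the exception being PBS replicate 2. Of the 15 CpGs with the highest level over the 9 libraries other than PBS replicate 2, 9 lay inside MspI sites, which hold 10 of the 219 CpGs. The median over those 9 libraries pooled was 1.29% for the 10 site CpGs, with a range of 0.41% to 9.93%. For the 209 other CpGs it was 0.195%, with quartiles of 0.119% and 0.297%, and 1 exceeded 1%. The rise did not extend beyond the site itself: the pooled level was 1.19% inside sites, 0.197% at 1 to 50 bases from a site, 0.209% at 51 to 150 bases and 0.225% beyond 1500 bases.

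**Figure D2:**
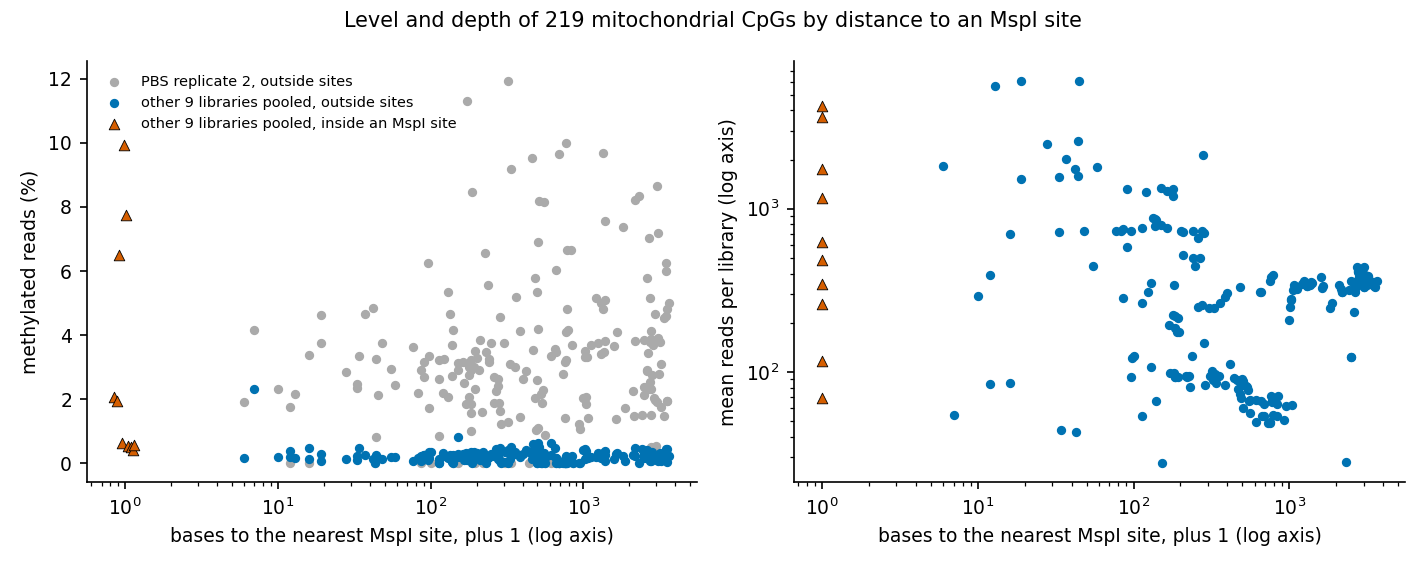
Left, methylated reads in percent for each of the 219 CpGs listed in all 10 libraries against its distance in bases from the nearest MspI site plus 1 (log axis), for PBS replicate 2 (grey) and the other 9 libraries pooled (blue, with site CpGs as orange triangles). Right, mean reads per library of the same CpGs on log axes. Outside the sites the pooled level is 0.197% at 1 to 50 bases and 0.225% beyond 1500, while mean depth goes from 1728 reads at 1 to 50 bases to 631 at 51 to 150.

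The height inside the sites was library-specific. The 10 site CpGs together gave 0.759%, 0.982% and 0.481% in PBS. F-MTAza gave 0.541%, 0.698% and 0.749%, and NP-MTAza replicates 1 and 2 gave 0.914% and 0.73%. Aza replicate 3 and NP-MTAza replicate 3, at 2.43% and 2.51%, stood above the other 8 libraries. The same 2 libraries were the lowest of all outside the sites, at 0.169% and 0.115%, so their ratio of site to other level was 14.3 and 21.9 against 1.94 to 3.51 in the 7 libraries that remain once PBS replicate 2 is set aside. No single label sets both apart from the rest. Both are numbered 3 and had 1 set of barcodes, as did PBS replicate 3 and F-MTAza replicate 3. Replicates 1 and 2 of the Aza and NP-MTAza groups had 2 sets. The cause was not tested.

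At site 6, the CpG at position 5726 in mt-Co1, methylated reads were 18 of 579, 35 of 189 and 45 of 1168 in PBS and 148 of 984 in Aza replicate 3. F-MTAza had 7 of 257, 15 of 404 and 10 of 252. NP-MTAza had 23 of 500, 29 of 711 and 175 of 1199. As levels, PBS replicate 2 (18.5%), Aza replicate 3 (15%) and NP-MTAza replicate 3 (14.6%) were high, and the other 7 lay between 2.72% and 4.6%.

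At site 3, position 2520 in mt-Rnr2, levels were 9.33% in Aza replicate 3 and 11.1% in NP-MTAza replicate 3, against 0% to 5.73% in the other 7 and 1.52% in PBS replicate 2. Site 5, position 3401 in mt-Nd1, reached 17.8% and 18.8% in the same 2 libraries, but on 90 and 112 reads, and NP-MTAza replicate 1 had 14.3% there. Site 8 is the sharpest contrast at depth. At position 6275, Aza replicate 3 had 59 methylated of 3624 reads (1.63%) and NP-MTAza replicate 3 had 52 of 3825 (1.36%), whereas the other 7 lay between 0.106% and 0.401% and PBS replicate 2 had 0.235%. Its neighbour site 7, position 6113, showed less: 0.819% and 0.786%, against 0.845% in NP-MTAza replicate 1. In all, Aza replicate 3 was above each of those 7 libraries at 6 of the 10 sites, NP-MTAza replicate 3 at 7, and both at 5.

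**Figure D3:**
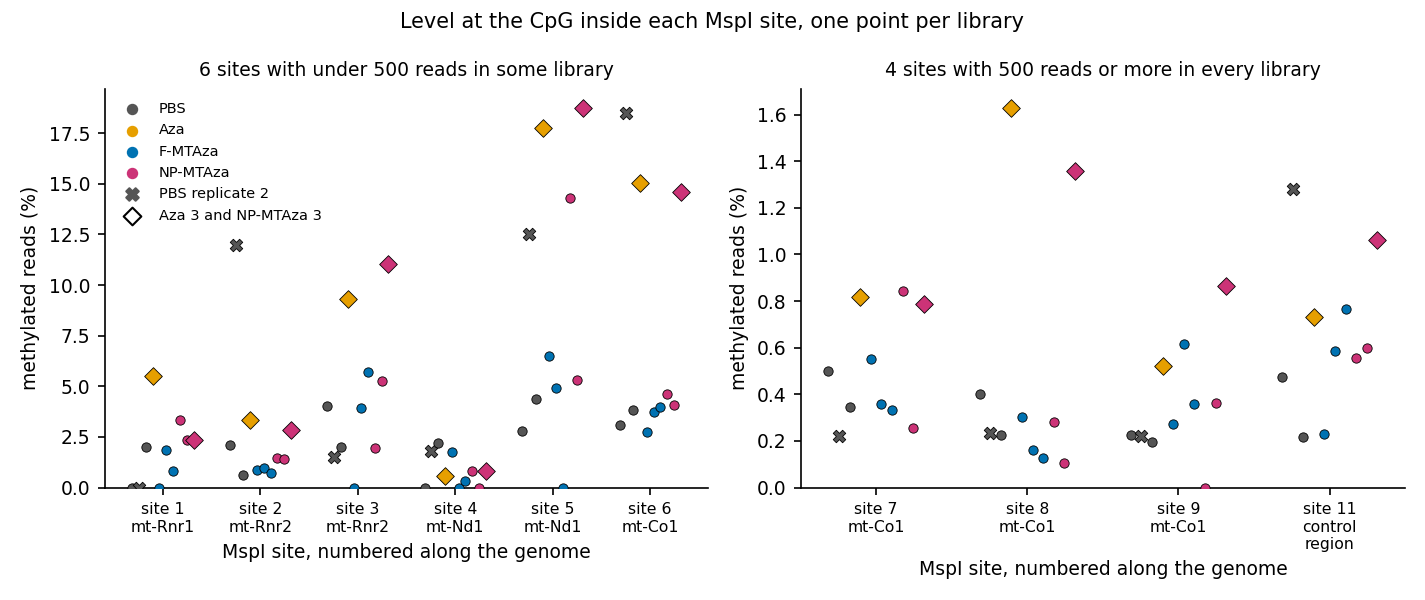
Methylated reads in percent at the CpG inside each of 10 MspI sites, 1 point per library, coloured by group, with 6 shallower sites on the left and 4 deeper ones on the right on a separate axis. Diamonds (Aza replicate 3 and NP-MTAza replicate 3) lie above the round points at sites 2, 3, 5, 6 and 8, and the cross marks PBS replicate 2.

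PBS replicate 2 differed from the others mostly outside the sites. It was above each of the other 9 libraries at 181 of 209 CpGs outside MspI sites but at 3 of the 10 inside. Those 3 were sites 2, 6 and 11, at 12%, 18.5% and 1.28%. With reads pooled, the site level of PBS replicate 2 was 0.982%, which draws largely on sites 7 and 8. These had 0.222% and 0.235% on 3152 and 4260 reads in PBS replicate 2. Its median CpG outside the sites had 3% methylated reads, with quartiles of 1.92% and 4.12%, and 24 of its 225 CpGs had no methylated read. In the other 9 libraries 126 to 148 CpGs had none. The excess was spread along the whole chromosome, with 2.91% methylated reads at 51 to 150 bases from a site and 3.49% beyond 1500 bases.

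The Pearson chi-square over its degrees of freedom, which is about 1 when counting alone sets the spread, was 1.24 to 2.43 over CpGs outside the sites in the 10 libraries. With the sites included it reached 33.6 in Aza replicate 3 and 44.5 in NP-MTAza replicate 3, against 1.72 to 5.55 in the other 8. Levels of the 209 other CpGs were only weakly alike between libraries, with a median Spearman rho of 0.164 over the 36 pairs without PBS replicate 2, while their depths had a median rho of 0.892 over 45 pairs. In these 9 libraries 56% to 64.9% of CpGs had no methylated read, and such ties limit the rho of levels but not that of depths. The chi-square and rho values are descriptions across CpGs, which share each library's conversion and fragment ends. At 25 CpGs no methylated read was seen in the 9 libraries, on 267 to 2268 reads each, which allows a level of up to 1.12% and 0.132% respectively.

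The 11 annotated features with at least 3 listed CpGs in every library were 2 ribosomal RNA genes, 7 protein genes, the transfer RNA gene mt-Tm and the control region, where replication and transcription start. These genes have no introns, so their CpGs are exonic. Over the 9 libraries other than PBS replicate 2, pooled levels ran from 0.0812% in mt-Nd2 to 0.431% in mt-Co1, and from 0.0812% to 0.413% once site CpGs were left out. Both ends of the second range rest on few reads, 3697 in mt-Nd2 and 2419 in mt-Tm.

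The small ribosomal RNA gene mt-Rnr1 had 0.151%, 4.66% and 0.202% in PBS, 0.765% in Aza replicate 3, 0.0732%, 0.591% and 0.0725% in F-MTAza, and 0.232%, 0.588% and 0.24% in NP-MTAza. mt-Rnr2 was steadier, with 0.269%, 3.22% and 0.31% in PBS, 0.392% in Aza replicate 3 and 0.221% to 0.306% in the combination. The control region had 0.226%, 2.51% and 0.239% in PBS, 0.158% in Aza replicate 3 and 0.205% to 0.399% in the combination. Only PBS replicate 2 stood clear of the rest at all 3.

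Over the 10 libraries pooled, the 3 highest protein genes were mt-Nd1, mt-Nd2 and mt-Co1, at 0.732%, 0.616% and 0.594%. The 3 lowest were mt-Nd4, mt-Nd5 and mt-Cytb, the cytochrome b gene, at 0.367%, 0.369% and 0.37%. That order rests in part on PBS replicate 2: over the other 9 libraries mt-Nd2 was the lowest of the 11 features, at 0.0812%, with mt-Nd1 at 0.402% and mt-Co1 at 0.431%. The mt-Nd2 value rests on 3697 reads, with library levels from 0% to 0.81%, so its rank is uncertain. mt-Nd1 and mt-Co1 hold 2 and 4 MspI sites and the 3 lowest hold none. With site CpGs also set aside, mt-Co1 was at 0.223% over these 9 libraries, and mt-Cytb, which has none to set aside, at 0.22%. All 11 features were lower in the combination than in PBS with PBS replicate 2 included, and 6 of 11 without it. By exact permutation test none passed after Benjamini-Hochberg adjustment over the 11 (lowest adjusted p = 0.262). At an unadjusted p under 0.05 there was 1, mt-Nd4, with -1.22 points (exact permutation p = 0.0357). The mt-Nd4 difference without PBS replicate 2 was -0.21 points (exact permutation p = 0.214) and no feature had an unadjusted p under 0.05.

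**Figure D4:**
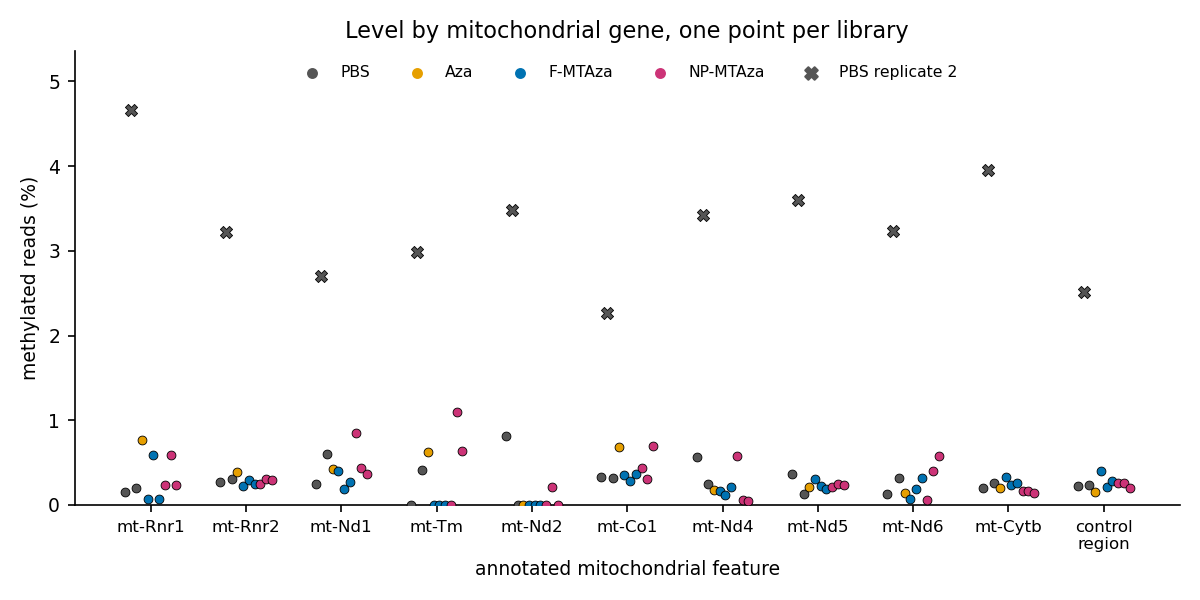
Methylated reads in percent for each of the 11 annotated mitochondrial features, 1 point per library, coloured by group. PBS replicate 2 (crosses) lies between 2.27% and 4.66% in every feature, and the other 9 libraries lie at or below 1.1%.

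Single CpGs were tested over the whole genome by a likelihood ratio test on reads pooled within groups, where a call needed 35 points or more of difference and an adjusted p (q) under 0.01. For F-MTAza against PBS none of 219 mitochondrial CpGs was called, whereas 22.0% of the 512987 CpGs tested were. For NP-MTAza against PBS none of 221 was called against 25.9% of 815900, and for NP-MTAza against F-MTAza none of 220 against 0.0309% of 718443. The median difference from PBS was -0.722 points for F-MTAza and -0.693 points for NP-MTAza at mitochondrial CpGs, but -21.8 and -24.2 points over all CpGs. Without PBS replicate 2 both mitochondrial medians were 0 points, whereas those over all CpGs were -21.3 and -23.5 points. Every mitochondrial level lay below 35% in all 10 libraries, so no fall could reach that minimum. An unadjusted p under 0.05 in the pooled test was reached by 117, 126 and 39 mitochondrial CpGs. Without PBS replicate 2 the counts against PBS were 24 for F-MTAza and 43 for NP-MTAza. The test corrected for extra spread between libraries by an F distribution called none at any CpG of the genome, with an unadjusted p under 0.05 at 3, 8 and 2 mitochondrial CpGs.

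With no minimum difference the pooled test called 59 mitochondrial CpGs in F-MTAza against PBS, all lower (48.9% of all CpGs tested). In NP-MTAza against PBS it called 83 (53.2% of all), of which 79 were lower and 4 higher. Those 4 were the CpGs of MspI sites 3, 6, 7 and 8, raised by 5.05, 4.36, 0.278 and 0.346 points. Against F-MTAza, NP-MTAza was higher at 1 CpG, site 6, by 5.91 points (0.0614% of all). These calls moved with single libraries. Without PBS replicate 2, F-MTAza had 2 calls, 1 lower and 1 higher (42.5% of all), and NP-MTAza 11, 2 lower and 9 higher (45.6% of all). Without NP-MTAza replicate 3 none was higher in either NP-MTAza comparison, and 49 were lower than PBS (44.2% of all). Without PBS replicate 3 the F-MTAza count was 98, all lower (42.6% of all).

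When the chi-square statistic was scaled by the spread between libraries, a test chosen after seeing the data, 3 CpGs in F-MTAza (37.1% of all) and 8 in NP-MTAza (41.4% of all) were lower than PBS and none was higher. The 3 CpGs, at positions 2795, 3155 and 3685 of mt-Nd1, were among the 8. They fell by 1.65, 1.34 and 3.16 points in F-MTAza. Without PBS replicate 2 the scaled test called 1 CpG in F-MTAza, higher (30.0% of all CpGs), and 2 in NP-MTAza, lower (32.7%). Without PBS replicate 1 it called 29 (31.7%) and 34 (34.8%), all lower. Leaving out any single library of a comparison with PBS moved the scaled count by over 1.5 times, from 1 to 29 in F-MTAza and from 2 to 34 in NP-MTAza. The scaled test called no CpG between NP-MTAza and F-MTAza, where 26 had an unadjusted p under 0.05.

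Among CpGs with at least 100 reads in every library, 8 with the highest level over the 10 libraries pooled ran from 0.742% to 8.09%, and 4 of them were site CpGs, at sites 2, 3, 4 and 6. The other 4, at positions 2003, 2535 and 2879 and in the control region at 15992, were high through PBS replicate 2, at 3.37% to 5.2% there. The 4 lowest were at 1786, 2488, 12230 and 13861, with 2 of 2845, 26 of 15584, 4 of 3409 and 4 of 2634 reads methylated. The 5 largest differences between the combination and PBS, taken as means of library levels, were negative. They lay at sites 2 (-3.52 points) and 6 (-2.88), at 14393 (-3.12) and 14355 (-2.75) in mt-Cytb and at 11414 (-2.61) in mt-Nd4. At each, PBS replicate 2 was the highest library, with 7.55% to 18.5%, and without it the differences were 0.0158, 2.13, -0.00218, -0.438 and 0.246 points in the same order. At site 6 the sign also depends on the weighting: with reads pooled the combination was the higher, at 259 of 3323 (7.79%) against 98 of 1936 (5.06%) in PBS.

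Part of the chromosome was not listed in any of the 10 libraries. Of the 287 CpGs, 57 were listed in none of the 10, all between positions 6842 and 10569, and all inside the stretch 6390 to 11042 that has a near-identical copy in the nuclear genome at chr1:24618374-24623027. That copy is 4654 bases long, 99.9% identical, and overlaps exons of the predicted genes Gm10222 and Gm10925. It differs by 2 substitutions, A6393T and T9461C (the mitochondrial base, its position on chromosome M counted from 1, then the base of the copy read on the same strand), and by 1 inserted base. Outside the stretch all 212 CpGs were listed in all 10 libraries, and inside it 7 of 75 were. MspI site 10, in mt-Atp6, lies in the gap.

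Reads from the stretch can match both places equally well. On chromosome 1, 17 CpGs of the copy, opposite mitochondrial positions 9072 to 10143, were listed in at least 8 libraries with 170 to 1665 reads per library, and the deepest had 106 to 561. They held 22 methylated of 10000 reads, or 0.22% (95% Wilson interval 0.145% to 0.333%). PBS replicate 2 was again the highest, with 6 methylated of 170 reads (3.53%). At 41 of the 75 positions neither the mitochondrial nor the nuclear CpG was listed.

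The other nuclear copies of mitochondrial sequence give a like sequence context outside the organelle. Over their listed CpGs, the longest copy left out, the level was 81.4%, 88.9% and 77.4% in PBS and 44% in Aza replicate 3. F-MTAza had 39.9%, 50.5% and 50.2%, and NP-MTAza had 40.9%, 42.7% and 41.1%. Every drug-treated library was below every PBS library. The combination differed from PBS by -38.4 points (44.2% ± 4.83 against 82.6% ± 5.84, exact permutation p = 0.0119, the smallest possible), or by -35.2 points without PBS replicate 2. At the same positions on chromosome M the levels were 0.422% ± 0.163 and 1.01% ± 1.21 (exact permutation p = 0.274), and without PBS replicate 2 the combination was 0.11 points higher (exact permutation p = 0.464). Nuclear reads there were few, 280 to 797 per library, and the CpGs listed differed between libraries.

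The best covered of them, chr2:22442808-22446054, matches positions 4441 to 7699 at 97.4% identity and overlaps 3 annotated pseudogenes and an intron of Myo3a. Its 10 CpGs listed in at least 8 libraries fell from 84.2% in PBS to 52.4% in F-MTAza and 46.1% in NP-MTAza, reads pooled by group, and were at 42% in Aza replicate 3. A copy at chr12:98299638-98300002, which is 99.7% identical and overlaps no annotated gene, had 17.5% in PBS, 12.1% in F-MTAza and 7.69% in NP-MTAza, on 40 to 65 reads at 2 CpGs, and 41.7% on 12 reads in Aza replicate 3. PBS replicate 2 listed neither CpG, so the PBS value comes from replicates 1 and 3, at 25% and 14.3%. Single libraries ran from 7.14% to 30% in F-MTAza and from 0% to 13.8% in NP-MTAza, on 10 to 29 reads each. With reads pooled by group, this copy lay between the mitochondrial and nuclear levels.

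**Figure D5:**
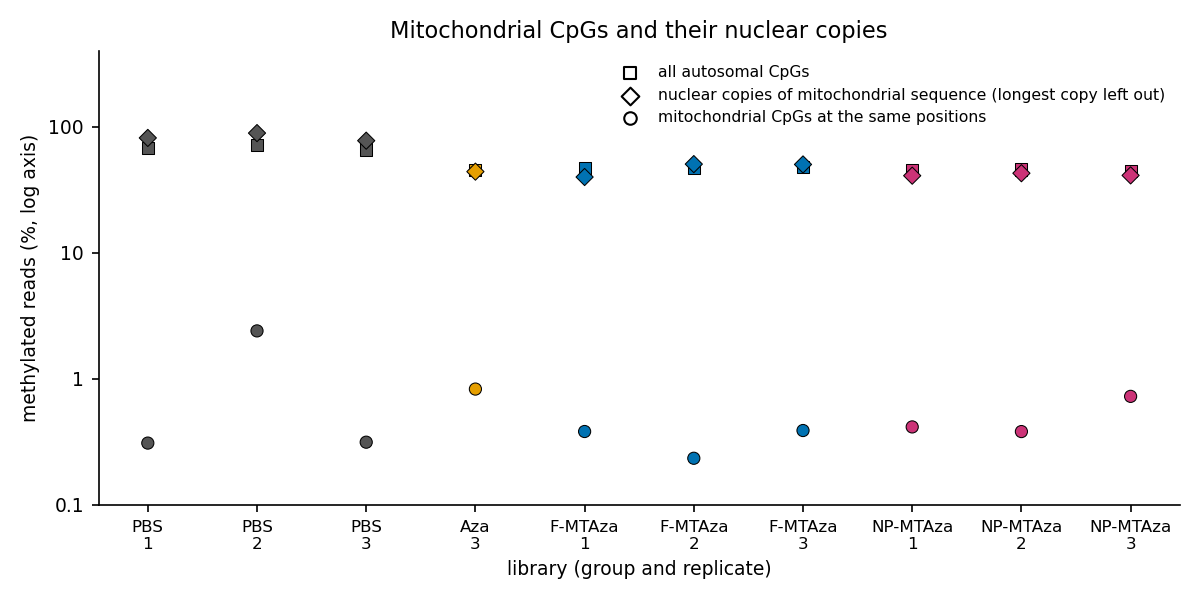
Methylated reads in percent, on a log axis, in each of the 10 libraries for all autosomal CpGs (squares), for nuclear copies of mitochondrial sequence with the longest copy left out (diamonds) and for the mitochondrial CpGs at the same positions (circles). The nuclear copies fall from 77.4% or more in PBS to 50.5% or less in the drug-treated libraries, while the mitochondrial CpGs stay below 1% except in PBS replicate 2.

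Promoters of 20 housekeeping genes, which are largely unmethylated, gave a nuclear level to set beside the mitochondrial one. Over 500 bases each side of the start site they ranged from 3.46% in F-MTAza replicate 2 to 7.03% in F-MTAza replicate 3, with 6.06% in PBS replicate 2. The CpGs listed there differed between libraries, from 198 CpGs on 2074 reads to 541 on 8313, which can move these levels. Across the 10 libraries the Pearson r with the mitochondrial level was 0.465 (permutation p = 0.168) and Spearman rho was 0.127 (permutation p = 0.733). Without PBS replicate 2 and Aza replicate 3, the farthest from the median, r was -0.163, so the relation rests on those libraries. Of 3 such relations, with all CpGs, without and only with site CpGs, the lowest adjusted permutation p was 0.252.

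The genes that keep and copy mitochondrial DNA are nuclear, and 22 were examined by their promoters, from 2000 bases upstream to 500 downstream of the start site. Of these, 16 had 5 reads or more in every library and were tested with limma over 13329 promoters. The promoter of Tfam, the factor that packages mitochondrial DNA, was not among them, with 0 to 393 reads per library. No promoter of the list was called at an adjusted p under 0.05 with a difference of at least 10 points, in F-MTAza (22.4% of all promoters called) or in NP-MTAza (23.9%), and none had an unadjusted limma p under 0.05. Of the 16, 12 had a PBS mean under 10%, so that no fall there could reach the minimum difference, and the share over all promoters is no measure for them. Leaving out PBS replicate 2 also gave no call. The list's median difference was -1.15 and -0.867 points, against -6.31 and -7.23 over all promoters, and low PBS levels limit that median too. Lonp1, Peo1, Top3a and Polrmt had a PBS mean of 10% or more. In F-MTAza they differed by -9.78, -9.61, -4.82 and -2.93 points, and in NP-MTAza by -8.13, -10.04, -8.42 and 4.42. The Peo1 difference rests on PBS replicate 2, at 34.1% against 9.98% and 4.08% in PBS replicates 1 and 3.

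Polg, the mitochondrial DNA polymerase, had promoter levels of 9.79%, 11.7% and 8.47% in PBS and 4.94% in Aza replicate 3. F-MTAza had 0%, 0.712% and 12.5% there, and NP-MTAza had 14.8%, 5.42% and 8.44%, so the groups overlapped (limma adjusted p = 0.181 and 0.925). Polrmt, the mitochondrial RNA polymerase, had 25%, 33.3% and 6.75% in PBS, with 30.7%, 10.8% and 14.8% in F-MTAza and 44.4%, 24.2% and 9.72% in NP-MTAza (limma adjusted p = 0.882 and 0.773). For both promoters the difference from PBS was within the spread between libraries.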

How the data were processed

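RRBS was run on 12 libraries and the 10 named above were used. The authors digested DNA with MspI, removed fragments above 300 bp, converted the rest and, per the labels and submitters' notes, processed reads with Trim Galore 0.4.4, Bismark 0.20.1 and Bowtie2 on mm9. They deposited, for each CpG with at least 5 reads, the percent methylated as a whole number rounded down and, in another column, methylated over total reads, from which every value here was computed. Both strands of a CpG were merged, per their methods; the handling of reads with several alignments was not given in the sources used here. Libraries held 25336747 to 65817118 reads over listed CpGs. Members, lists and tests were chosen with earlier results of these data known.

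Library levels and shares were compared by two-sided exact permutation tests (scipy 1.17.1). Single CpGs were tested by likelihood ratio over all chromosomes and promoters by limma 3.58.1 in R 4.3.3 on arcsine square root levels. In data simulated for NP-MTAza against PBS (20221 CpGs, 5000 promoters), 40 mitochondrial CpGs were raised by 5 points. With no minimum difference the pooled test recovered 85% of them, the scaled test 77.5% and the F test 0%. A rise of 5 points cannot reach the minimum of 35 points. The observed median differences from PBS were -0.722 and -0.693 points, so these rates do not measure recovery of changes that small. Limma recovered 91% of 200 changed promoters, all given a large fall from a high level. Of the 16 listed promoters tested, 12 had a PBS mean under 10% and the other 4 had 16.0% to 28.5%. The 91% was obtained from high levels and is no measure for any of the 16. Nuclear copies were found with blastn 2.17.0 and MspI sites, CpGs and genes read from the NCBIM37 genome and its annotation. Older symbols were matched through RefSeq synonyms. Features, CpGs and genes were named by rule: the 2 rRNA genes, control region and 3 highest and 3 lowest protein genes, the 8 highest, 4 lowest and 5 most different CpGs with 100 reads in every library, and for promoters those called or else Tfam, Polg and Polrmt. Site CpGs, the 3 and 4 CpGs singled out by the tests and the promoters of Lonp1, Peo1 and Top3a were named after their values were seen. At 8967 nuclear promoters, PBS, F-MTAza and NP-MTAza libraries with the same replicate number did not deviate together. The 9 correlations ran from -0.13 to 0.0583. Aza libraries and chromosome M were not part of that check. Alternatives were another coverage minimum, weighting or set of CpGs, left-out libraries and a replicate block. The scaled test, the split by MspI site and some values without PBS replicate 2 were added after seeing the data.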

Additional observations from a re-analysis of the deposited data

Results flagged for a closer look

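The chromosome M entries of Aza replicates 1 and 2, which no comparison uses, stood at 39.9% and 40.6% methylated reads, above the highest PBS library on chromosome M (2.76%) and near the autosomal levels of the same 2 libraries (45.8% and 46.8%). They listed 97 and 62 mitochondrial CpGs with medians of 7 and 6 reads, where the other 10 libraries had 223 to 228 CpGs and medians of 146 to 370. Mitochondrial CpGs took 0.00235% and 0.00121% of their reads, against 0.228% to 0.304% elsewhere. Both libraries were sequenced with 2 sets of barcodes, as were NP-MTAza replicates 1 and 2, whose chromosome M entries were like those of the rest. The cause was not tested.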

How the results depend on the processing

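Of 233 alternatives, 198 kept the direction and the side of the threshold, or the count where the result was a count. Another 30 turned the direction of a difference and 5 moved a count. Part of the 198 had little room to change. With 3 libraries against 3 no p below 0.1 is possible, so only the direction could turn. No mitochondrial CpG could fall by 35 points, and 12 of the 16 promoters could not fall by 10. The 198 are therefore no measure of robustness. Among the library levels, shares and log2 ratio, no exact test passed 0.05 except the log2 ratio without PBS replicate 2. The mitochondrial level turned with only site CpGs, to 0.283 points for the combination, 0.645 for NP-MTAza and 0.484 for all drug-treated libraries against PBS, and without site CpGs it was -0.0356 points for NP-MTAza against F-MTAza. Adding Aza replicates 1 and 2 gave 8.08 points for all drug-treated libraries. Leaving out 1 library moved the level difference from -1.22 to 0.0192 points for the combination, -1.25 to -0.0102 for F-MTAza, -1.19 to 0.0486 for NP-MTAza, -1.21 to 0.0366 for all drug-treated and 0.0342 to 0.0828 for NP-MTAza against F-MTAza, in each PBS comparison with the end nearest or above 0 being the one without PBS replicate 2.

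The differences in share of reads were near 0 and turned easily. With a minimum of 20 reads they were 0.0816, 0.119, 0.0442 and -0.0748 points for combination, F-MTAza and NP-MTAza against PBS and NP-MTAza against F-MTAza. As mean mitochondrial over mean nuclear depth the combination was 0.269 and NP-MTAza 4.16 above PBS, and with 1 barcode set NP-MTAza was 0.014 points above. Leaving out 1 library gave -0.0202 to 0.0175 points for the combination, -0.0227 to 0.0149 for F-MTAza, -0.0177 to 0.01999 for NP-MTAza, -0.0148 to 0.0228 for all drug-treated and -0.00291 to 0.017 for NP-MTAza against F-MTAza. The log2 ratio ran from -0.98 to 0.62. With no minimum difference the CpG calls were 59, 83 and 1, and 3 and 8 by the scaled test, as given above.

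A replicate block was also tried, although the numbers did not pair the PBS and combination libraries at nuclear promoters. It left the calls of the exact tests as they were and the combination's level difference at -0.807 points. With no minimum difference it called 85, 100 and 0 CpGs, where it called 45.1%, 49.8% and 0.0678% of all CpGs tested. It turned the share of all drug-treated libraries from 0.000879 to -0.000983 points. In the housekeeping relation r turned to -0.163. A group of 3 libraries, a median of 146 to 370 reads per CpG and a level near 0.3% limit these data.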
